A study of Mus musculus with 32 samples.

Results

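The genes described here encode the nuclear part of respiratory complex I, the NADH dehydrogenase of the inner mitochondrial membrane, together with factors that assemble it. They were taken as every protein-coding gene whose name starts with Nduf, which gave 46 of the 30644 genes in the deposited count table. The list rests on names alone and used no measured value, though it was chosen with earlier results of these data known. By role the members comprise 7 core subunits, 29 accessory subunits and 8 assembly factors, and 2 further genes that carry the name for historical reasons, Ndufa4, whose protein is a subunit of complex IV, and its paralog Ndufa4l2. A filter on low counts kept 45 of the 46 members for testing, and Ndufa4l2, with 23 counts over all libraries, was not tested.

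RNA was measured in 4 populations of multipotent progenitors, named MPP1, MPP2, MPP3 and MPP4, that had been sorted from the bone marrow of C57BL/6 mice. The animals were wild type, +/1013 (1 copy of the Cxcr4 1013 allele) or 1013/1013 (both copies of it), and the allele encodes a CXCR4 receptor with a truncated carboxyl end, as found in people with WHIM syndrome. Each population had 3 wild-type, 3 +/1013 and 2 1013/1013 libraries, 32 in all, and each library was made from 3000 pooled cells. The title of the series names mitochondrial metabolism as a pathway downstream of CXCR4, so the members were compared between populations and between genotypes. The labels do not tell whether the libraries of a group came from different animals, and the p-values therefore measure only the spread between these libraries.

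Complex I takes electrons from NADH, passes them through a flavin and a chain of iron-sulfur clusters to ubiquinone, and pumps protons across the membrane. Its catalytic core is made of nuclear-encoded subunits of the matrix arm and of mitochondrially encoded subunits of the membrane arm, and accessory subunits surround and stabilise both arms. Blood stem cells and the earliest multipotent progenitors are known for low respiration and slow division, and respiration is known to rise as progenitors become committed.

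The libraries held 13016038 to 37050983 counts, with a median of 28458444.5. In 1 library, MPP2 +/1013 replicate 3, 11612 genes reached 5 counts, against a median of 14056.5 and a highest value of 15136. MPP4 1013/1013 replicate 2 was close to that low end, with 11693 genes. The members took 0.439% of all counts in MPP1 1013/1013 replicate 1 and 1.06% in MPP2 +/1013 replicate 3, the lowest and the highest share. The populations carried their labels' markers in part: Flt3 and Dntt rose in MPP4 against MPP1 and Hlf, Mecom and Slamf1 fell. These genes alone do not settle the identity of the populations. A sum of 6 mature neutrophil markers was 33.8 to 3612 CPM (read counts scaled to a common library size, with TMM factors) in 8 libraries whose library number is a multiple of 3, namely the third replicates of wild-type and +/1013 MPP2, MPP3 and MPP4 and the second 1013/1013 replicates of MPP2 and MPP4. The same sum was 0.579 to 70.3 CPM in the other 24 libraries, a range that holds the lowest of the 8, MPP4 1013/1013 replicate 2. Fos, an immediate-early gene, kept the sets apart, at 64.6 to 949 CPM in the 8 and 1381 to 9321 CPM in the other 24. The median member was at 88.4 to 173 CPM in those 8 libraries and at 65.7 to 173 CPM in the other 24, ranges that overlap. All MPP1 libraries are among the 24, so the set goes in part with the comparison of other populations with MPP1. Within groups, the library of the set had the highest median member in wild-type and +/1013 MPP2 and MPP3 and in 1013/1013 MPP4. It did not in wild-type and +/1013 MPP4 or in 1013/1013 MPP2. The part of these genes' signal in the members' values was not tested.

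Per kilobase of the deposited gene length, averaged over the 32 libraries, Ndufa4 was the highest member, at 788 CPM per kilobase. Ndufv1, the core subunit that carries the flavin and binds NADH, followed at 733 CPM per kilobase. Among the other core subunits, Ndufv2, which holds an iron-sulfur cluster beside the flavin, was at 471 CPM per kilobase, Ndufs7 at 300.3, Ndufs8 at 293 and Ndufs3 at 193. The lowest core subunit was Ndufs1, the large iron-sulfur protein of the electron input module, at 151 CPM per kilobase. The assembly factors lay lower, from 120 CPM per kilobase for Ndufaf6 to 24.6 for Ndufaf4, the lowest tested member. Ndufb2, an accessory subunit of the membrane arm, was at 31.5 and Ndufaf5, an assembly factor that modifies NDUFS7, at 35.3 CPM per kilobase.

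**Figure D1:**
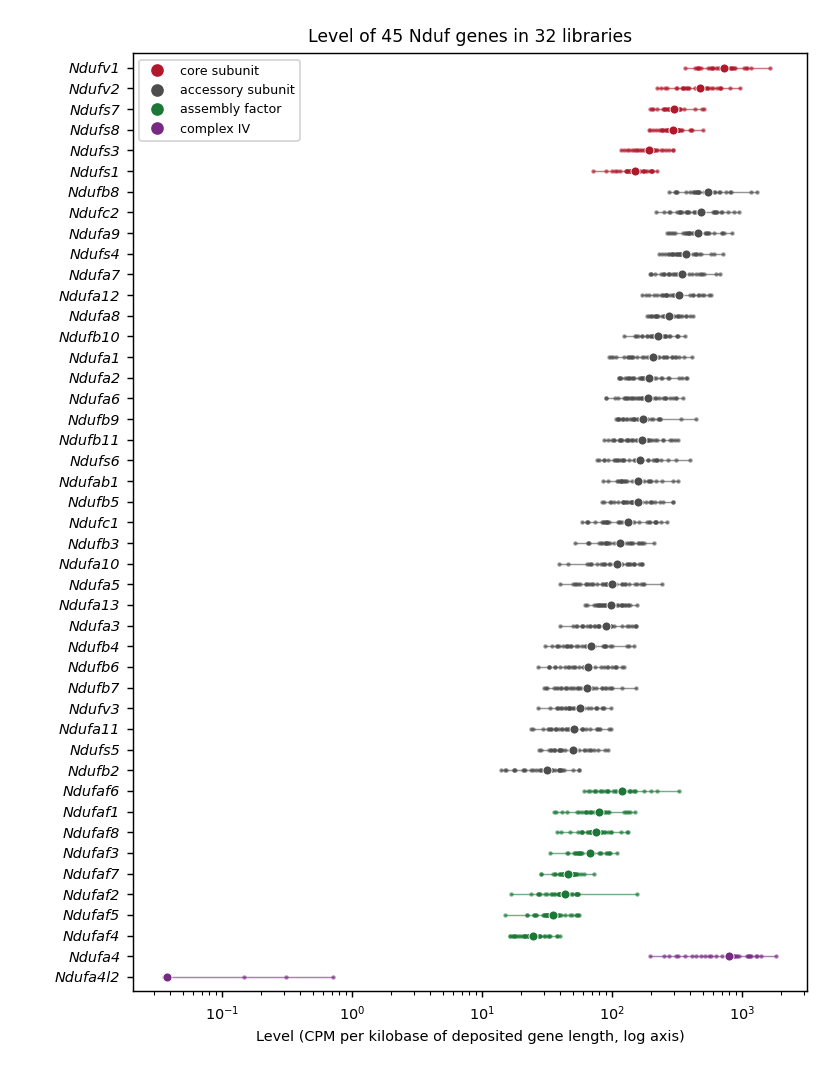
Level of 45 of the 46 genes in each of 32 libraries (small points) with the mean over libraries (large points), in CPM per kilobase of deposited gene length on a log axis. Colours mark the role; Ndufa4 has the highest mean, at 788, the assembly factors lie between 24.6 and 120, and libraries with no count of Ndufa4l2 are not drawn.

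The order of the levels depends on the length used. With the longest coding transcript of GENCODE release M21 in place of the deposited length, Ndufa4 stayed first, Ndufc2 moved to the second place and Ndufa9 to the third, and the lowest tested members were Ndufb2, Ndufaf4 and Ndufv3. Ndufa4l2 had counts in 4 libraries only, at 0.0334 CPM in MPP1 +/1013 replicate 3, 0.663 CPM in MPP2 wild-type replicate 3, 0.293 CPM in MPP3 +/1013 replicate 1 and 0.139 CPM in MPP3 1013/1013 replicate 1. No count was seen in any library of 8 of the 12 groups, namely wild-type and 1013/1013 MPP1, +/1013 and 1013/1013 MPP2, wild-type MPP3 and the MPP4 groups.

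RefSeq promoters of the GRCm38.p6 build, 300 bases around the annotated start, were on hand for 40 of the 46 members. Those of 6 members named in the comparisons are printed, with matches to the motifs searched in capitals. They were picked by hand, and Ndufs1 is not among them. All 6 lie on the minus strand of their chromosome and are written 5′ to 3′ in the direction of transcription.
Ndufa4, chr6:11907401-11907700: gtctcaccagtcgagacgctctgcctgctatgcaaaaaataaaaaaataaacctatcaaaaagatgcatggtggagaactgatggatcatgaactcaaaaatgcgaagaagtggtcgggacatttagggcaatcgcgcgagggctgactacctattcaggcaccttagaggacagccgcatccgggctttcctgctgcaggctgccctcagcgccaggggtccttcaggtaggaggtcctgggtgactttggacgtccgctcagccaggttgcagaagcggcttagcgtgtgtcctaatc
Ndufv2, chr17:66101510-66101809: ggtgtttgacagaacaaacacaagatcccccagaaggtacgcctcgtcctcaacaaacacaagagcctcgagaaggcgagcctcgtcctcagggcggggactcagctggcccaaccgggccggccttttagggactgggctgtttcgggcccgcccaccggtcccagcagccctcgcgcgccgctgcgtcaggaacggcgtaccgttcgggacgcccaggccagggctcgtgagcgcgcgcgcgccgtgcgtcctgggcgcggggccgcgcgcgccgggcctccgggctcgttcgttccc
Ndufb8, chr19:44555393-44555692: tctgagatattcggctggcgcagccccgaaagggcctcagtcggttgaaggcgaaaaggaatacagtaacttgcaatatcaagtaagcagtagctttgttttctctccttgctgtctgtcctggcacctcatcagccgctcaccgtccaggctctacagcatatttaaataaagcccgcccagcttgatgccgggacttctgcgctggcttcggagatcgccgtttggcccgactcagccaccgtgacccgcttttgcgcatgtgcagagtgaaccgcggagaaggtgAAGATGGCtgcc
Ndufa9, chr6:126849095-126849394: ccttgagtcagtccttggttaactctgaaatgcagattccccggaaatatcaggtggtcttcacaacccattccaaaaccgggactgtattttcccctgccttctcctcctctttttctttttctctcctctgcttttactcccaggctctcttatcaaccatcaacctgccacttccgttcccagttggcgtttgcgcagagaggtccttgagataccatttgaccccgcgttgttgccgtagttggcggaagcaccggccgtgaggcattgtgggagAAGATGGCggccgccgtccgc
Ndufaf1, chr2:119662785-119663084: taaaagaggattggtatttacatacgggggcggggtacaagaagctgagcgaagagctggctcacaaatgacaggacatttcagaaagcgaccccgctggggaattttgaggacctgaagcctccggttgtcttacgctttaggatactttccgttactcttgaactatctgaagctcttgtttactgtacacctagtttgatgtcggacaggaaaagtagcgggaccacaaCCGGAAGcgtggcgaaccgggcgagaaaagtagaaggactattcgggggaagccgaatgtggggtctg
Ndufa10, chr1:92473709-92474008: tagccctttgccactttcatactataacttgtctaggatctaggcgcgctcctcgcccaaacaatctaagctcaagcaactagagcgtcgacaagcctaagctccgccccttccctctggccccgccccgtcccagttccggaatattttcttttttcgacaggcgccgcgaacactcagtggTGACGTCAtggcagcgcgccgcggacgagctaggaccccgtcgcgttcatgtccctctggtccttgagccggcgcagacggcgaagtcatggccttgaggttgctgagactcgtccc
The capitals mark the YY1 motif AAGATGGC in Ndufb8 and Ndufa9, the ETS motif CCGGAAG in Ndufaf1 and the CRE motif TGACGTCA in Ndufa10. Each motif was searched on both strands, and the Ndufa4 and Ndufv2 windows held none of the motifs searched.

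Over all members with a promoter, AAGATGGC was in 8 of 40 (20%), against 2.75% of the 32851 promoters in the RefSeq table. Those 8 were Ndufa3, Ndufa9, Ndufaf8, Ndufb8, Ndufc1, Ndufs4, Ndufs6 and Ndufs7. CCGGAAG was in 6 members (15%) against 8.86% of all promoters, namely Ndufaf1, Ndufaf8, Ndufb6, Ndufb7, Ndufs3 and Ndufs8. The palindromic NRF1 motif was in 3 members (7.5%), Ndufa11, Ndufaf4 and Ndufaf5, against 0.971% of all. TGACGTCA was also in 3 members (7.5%), Ndufa10, Ndufa11 and Ndufb2, against 1.79%. The E-box CACGTG was in 2 members (5%) against 7.15%, and TATAAA in 4 (10%) against 13.6%. The member promoters were richer in G and C than promoters at large, with a median of 59.3% against 52.7%, and a match to these letters is not a shown binding site.

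Most members rose and fell together from library to library, and did so with other genes of short transcripts. Over the 32 libraries, with each group's mean removed, 39 of the 45 tested members had a Pearson correlation above 0.5 with the median of the other members, with the highest values for Ndufc2, at 0.965, and Ndufb5, at 0.964. The exceptions were Ndufb2 (0.49), Ndufaf1 (0.37), Ndufaf5 (0.21), Ndufaf7 (0.15), Ndufs1 (-0.16) and Ndufa10 (-0.70). The median member had a correlation of 0.976 with the median of non-member genes whose longest coding transcript is at most 1000 bases, and of -0.785 with that of genes over 4000 bases. Of the 46 members, 23 have a longest coding transcript of at most 1000 bases. These correlations describe libraries that also share depth and amplification, and no p-value is attached to them.

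**Figure D2:**
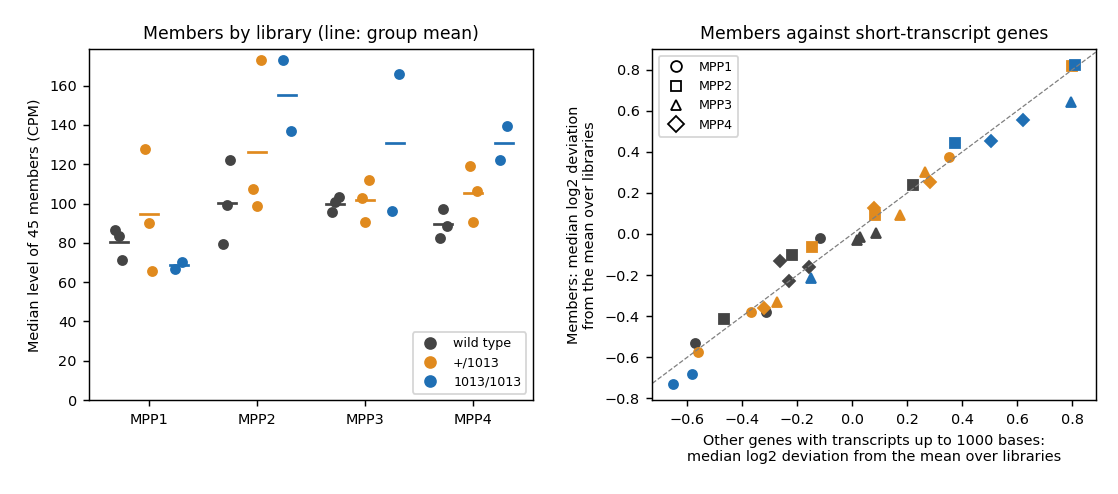
Left, the median CPM of the 45 tested members in each library (points) with the mean of each group (lines). Right, for each library, the median log2 deviation of the members from their mean over libraries against that of other genes with transcripts up to 1000 bases; the dashed line marks equality, and the 32 libraries lie along it, with 1013/1013 MPP1 at the lower end and MPP2 +/1013 replicate 3 and 1013/1013 MPP2 replicate 1 at the upper end.

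The median member was at 86.7, 83.6 and 71.4 CPM in wild-type MPP1, at 128, 90.2 and 65.7 CPM in +/1013 MPP1 and at 66.7 and 70.3 CPM in 1013/1013 MPP1. In MPP2 it was at 79.6, 99.2 and 122 CPM in wild type, at 107, 98.9 and 173 CPM in +/1013 and at 173 and 137 CPM in 1013/1013. In MPP3 the wild-type values were 95.7, 101 and 103 CPM, the +/1013 values 103, 90.4 and 112 CPM and the 1013/1013 values 96 and 166 CPM. In MPP4 they were 82.3, 97.4 and 88.4 CPM, then 119, 90.5 and 106 CPM, then 122 and 139 CPM. The 1013/1013 values thus lay below all wild-type values in MPP1, above all of them in MPP2 and MPP4, and in MPP3 1 lay within their range and 1 above it. The TMM factors differed as well in MPP2, at 0.871 and 0.965 in 1013/1013 against 0.984 to 1.04 in wild type. In MPP4 they were 0.904 and 0.892 against 0.993 to 1.01, and in MPP1 the 2 genotypes overlapped. The part of the scaling in these values was not tested. The +/1013 values overlapped the wild-type values in each population. In pooled cells such as these, fewer cells of a type and less RNA per cell cannot be told apart.

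Differences between populations were first read in wild type, where each population has 3 libraries. Of the 45 tested members, 40 had a positive log2 difference in MPP2 against MPP1, 39 in MPP3 and 31 in MPP4, with medians of 0.24, 0.29 and 0.12. With an offset for transcript length, described with the means over genotypes, 32, 28 and 28 were positive and the medians were 0.13, 0.11 and 0.05. Over all 18676 genes tested the medians were 0.00, -0.01 and 0.00. No member passed an adjusted p of 0.05 in edgeR's quasi-likelihood test, which gives every adjusted p below unless another tool is named, and the shares of all genes that passed were 0.0% in MPP2, 0.102% in MPP3 and 0.76% in MPP4. At an unadjusted p under 0.05 there were 0, 2 and 2 members, against 4.2%, 8.15% and 8.75% of all genes, and DESeq2 and limma-voom called 0 in each of the 3 comparisons.

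In wild type the complex IV gene Ndufa4 had the lowest p of all members in MPP3 and in MPP4. It was at 208, 150.2 and 144 CPM in MPP1, at 192, 241 and 440 CPM in MPP2, at 364, 397 and 418 CPM in MPP3 and at 361, 409 and 403 CPM in MPP4. All MPP3 and MPP4 values lay above all MPP1 values, whereas MPP2 overlapped MPP1. Its log2 difference was 0.80 (SE 0.42) in MPP2, 1.23 (SE 0.42, adjusted p = 0.512) for MPP3 and 1.22 (SE 0.42, adjusted p = 0.339) for MPP4. Ndufaf4 and Ndufv2 had the lowest p in MPP2, with log2 differences of 0.60 (SE 0.29) and 0.53 (SE 0.27) and an adjusted p of 0.931 for both. Ndufaf6, an assembly factor, and Ndufb5, an accessory subunit of the membrane arm, came after Ndufa4 in MPP3, at 0.74 (SE 0.32) and 0.59 (SE 0.30). Ndufv2 and Ndufa1, a small membrane-anchored accessory subunit, came after it in MPP4, at 0.58 (SE 0.27) and 0.69 (SE 0.37).

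Averaged over the 3 genotypes with equal weight, so that 8 libraries of each population entered, most members stood higher in the later populations than in MPP1 and some of them passed the test. In MPP2 against MPP1, 19 of 45 members rose and none fell, against 5.01% of all genes that rose and 1.72% that fell, and 44 of 45 log2 differences were positive. In MPP4 against MPP1, 12 members rose and none fell, against 7.59% of all genes that rose and 7.12% that fell. In MPP3 against MPP1, 2 rose, Ndufa4 and Ndufv2, and none fell, against 2.36% and 0.75% of all genes. Median log2 differences of the members were 0.66 in MPP2, 0.49 in MPP3 and 0.50 in MPP4, where the medians over all tested genes were -0.16, -0.08 and -0.15. DESeq2 called 27, 10 and 14 members, against 20%, 11.6% and 28.9% of all genes, and limma-voom called 23, 6 and 19, against 12.7%, 8.36% and 23.1%. Markers of other cells moved in the same comparisons: of 4 B cell markers 3 rose in MPP2, 4 in MPP3 and 3 in MPP4, of 4 myeloid progenitor markers 3 rose in each, and all 6 neutrophil markers had positive differences with none called. Their part in the members' differences was not tested. The member medians were 0.24, 0.29 and 0.12 in wild type alone, against 0.66, 0.49 and 0.50 in the means over genotypes. Those means also hold the 1013/1013 libraries, whose member medians against wild type were -0.41 in MPP1 and 0.65, 0.31 and 0.65 in MPP2 to MPP4. The calls are therefore not differences of wild-type cells alone, and the part of each genotype in them was not tested.

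Among the 7 core subunits, 4 rose in MPP2, 1 in MPP3 and 3 in MPP4. Of all genes 5.01%, 2.36% and 7.59% rose, shares that also stand behind the counts of the other roles. The median core subunit differences were 0.59, 0.31 and 0.45, and 0.21, 0.08 and 0.09 with the length offset described below. Ndufv2 was at 182 to 435 CPM in MPP1 with a median of 234 CPM, at 306 to 783 CPM in MPP2 with a median of 455 CPM, at 288 to 550.4 CPM in MPP3 with a median of 335 CPM and at 279.7 to 559.8 CPM in MPP4 with a median of 423 CPM. Apart from MPP1 +/1013 replicate 1, at 435 CPM, and MPP1 wild-type replicate 1, at 288 CPM, the MPP1 libraries were below every library of the other populations. Its log2 difference from MPP1 was 1.03 (SE 0.17, adjusted p = 0.00235) in MPP2, 0.62 (SE 0.17, adjusted p = 0.0467) in MPP3 and 0.82 (SE 0.17, adjusted p = 0.00242) in MPP4.

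Ndufv1 and Ndufs8, a core subunit with a pair of iron-sulfur clusters, rose in MPP2 and did not pass in MPP3 or MPP4. Ndufv1 was at 276 to 660.2 CPM in MPP1 and at 515 to 1255 CPM in MPP2, the highest value being that of MPP2 +/1013 replicate 3, and its log2 difference was 0.83 (SE 0.20, adjusted p = 0.0139). Ndufs8 had ranges of 184 to 313 CPM in MPP1 and 236 to 486 CPM in MPP2 and a log2 difference of 0.59 (SE 0.13, adjusted p = 0.00813). Ndufs3, a core subunit of the arm that meets ubiquinone, rose in MPP4, by 0.45 (SE 0.15, adjusted p = 0.0402), and had 0.47 (SE 0.15, adjusted p = 0.0522) in MPP2. Whether MPP2 and MPP4 differ from each other in these genes was not tested. Ndufs7, which carries the last iron-sulfur cluster before ubiquinone, had log2 differences of 0.41 in MPP2, 0.28 in MPP3 and 0.16 in MPP4, with adjusted p-values of 0.0826, 0.285 and 0.512. Ndufs1 had 0.17, -0.18 and 0.01, with adjusted p-values of 0.578, 0.592 and 1.

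Of the 29 accessory subunits, 12 rose in MPP2, none in MPP3 and 5 in MPP4, and 28, 27 and 26 of them had positive differences. The median log2 differences were 0.74, 0.52 and 0.52. With the length offset 20, 19 and 19 of the accessory subunits were positive, and the medians were 0.17, 0.11 and 0.14. Ndufb8, an accessory subunit of the membrane arm often used as a protein marker of complex I, was at 123 to 257 CPM in MPP1 and at 203 to 583 CPM in MPP2. It rose by 1.05 (SE 0.19, adjusted p = 0.0034) on the log2 scale in MPP2 and by 0.67 (SE 0.19, adjusted p = 0.0182) in MPP4. Ndufa9, a subunit at the joint between the arms, was at 327 to 666 CPM in MPP1, at 487 to 1032 CPM in MPP2 and at 454 to 893 CPM in MPP4. It rose by 0.70 (SE 0.14, adjusted p = 0.00677) in MPP2 and by 0.59 (SE 0.14, adjusted p = 0.00831) in MPP4. Ndufab1, the mitochondrial acyl carrier protein, rose by 0.84 (SE 0.17, adjusted p = 0.00622) in MPP2 and by 0.59 (SE 0.17, adjusted p = 0.0235) in MPP4.

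Ndufa1 rose in both as well, by 1.02 (SE 0.24, adjusted p = 0.0115) in MPP2 and by 0.80 (SE 0.23, adjusted p = 0.0251) in MPP4. Ndufb3, another small membrane-arm subunit, rose by 0.79 (SE 0.21, adjusted p = 0.0275) and by 0.65 (SE 0.21, adjusted p = 0.0422). The other accessory subunits that rose in MPP2 did so with log2 differences of 0.91 for Ndufb9, 0.93 for Ndufb4, 0.91 for Ndufs6, 0.88 for Ndufa6, 0.81 for Ndufa11, 0.74 for Ndufb5 and 0.60 for Ndufs4. Their adjusted p-values ran from 0.00565 for Ndufb9 to 0.04 for Ndufs6. At the other end stood Ndufa10, an accessory subunit of the membrane arm related to nucleoside kinases, the one member with a negative difference in MPP2. Its values were 45.9 to 116 CPM in MPP1 with a median of 96.1 CPM and 27.2 to 119 CPM in MPP2 with a median of 62.8 CPM. That difference of -0.51 (SE 0.27, adjusted p = 0.253) did not pass, nor did -0.17 in MPP3 and -0.39 in MPP4.

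Of the 8 assembly factors, 2 rose in MPP2 and 3 in MPP4, and all 8 had positive differences in the MPP2, MPP3 and MPP4 means. With the length offset 6, 5 and 5 of the 8 were positive. Ndufaf6, a factor of early assembly, was at 32.4 to 54.2 CPM in MPP1, at 40 to 173 CPM in MPP2 and at 47.8 to 118 CPM in MPP4. It rose by 1.00 (SE 0.20, adjusted p = 0.00596) in MPP2 and by 0.79 (SE 0.20, adjusted p = 0.0108) in MPP4. Ndufaf5 rose in MPP2, by 0.67 (SE 0.20, adjusted p = 0.043). Ndufaf1, a factor of the membrane-arm assembly complex, was at 47.1 to 104 CPM in MPP1 and at 72.6 to 197 CPM in MPP4. It rose by 0.83 (SE 0.19, adjusted p = 0.00459) in MPP4 and had 0.65 (SE 0.19, adjusted p = 0.0558) in MPP3. Ndufaf7, a methyltransferase of early assembly, rose by 0.43 (SE 0.13, adjusted p = 0.0348) in MPP4. The remaining factors, Ndufaf2, Ndufaf3, Ndufaf4 and Ndufaf8, had log2 differences of 0.78, 0.29, 0.47 and 0.49 in MPP2, and 0.22, 0.46, 0.21 and 0.18 in MPP4.

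The member with the largest difference in all 3 means was Ndufa4, which belongs to complex IV rather than complex I. It was at 92.5 to 429 CPM in MPP1 with a median of 147 CPM, at 192 to 601 CPM in MPP2 with a median of 354 CPM, at 262 to 655 CPM in MPP3 with a median of 389 CPM and at 297 to 860.3 CPM in MPP4 with a median of 465 CPM. Apart from MPP1 +/1013 replicate 1, at 429 CPM, every MPP1 library was below every MPP3 and MPP4 library. The log2 difference was 1.22 (SE 0.26, adjusted p = 0.00828) in MPP2, 1.36 (SE 0.27, adjusted p = 0.0054) in MPP3 and 1.62 (SE 0.27, adjusted p = 0.000274) in MPP4, that is 2.58-fold in MPP3 and 3.07-fold in MPP4. Over 26 alternative settings its MPP4 difference ran from 1.12 to 1.86 and was called in all 26.

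**Figure D3:**
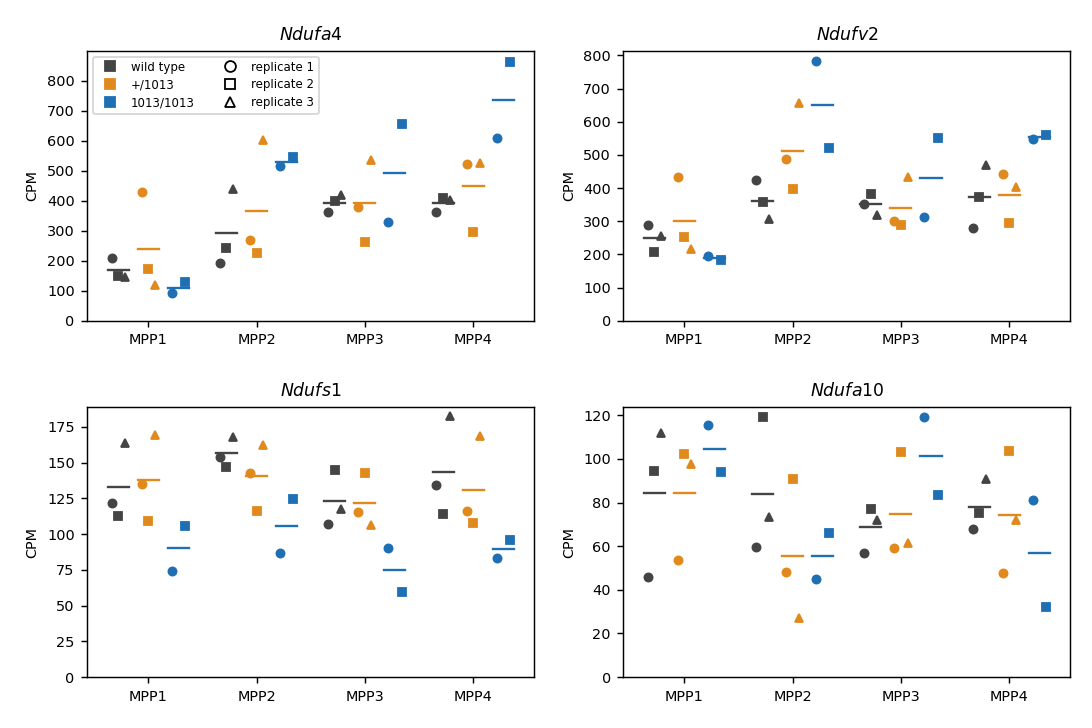
CPM of Ndufa4, Ndufv2, Ndufs1 and Ndufa10 in each of the 32 libraries (points, with shape for the replicate number and colour for the genotype) and the mean of each group (lines). Ndufa4 and Ndufv2 have their lowest median in MPP1, where +/1013 replicate 1 is the highest library; for Ndufs1 the 1013/1013 libraries lie below the wild-type libraries of the same population; Ndufa10 is lower in replicate 1 than in replicate 2 of each wild-type and +/1013 group.

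The size of these differences depends on how transcript length is treated. In MPP2 against MPP1, averaged over genotypes, non-member genes of at least 20 CPM had a median log2 difference of 0.63 where the longest coding transcript was at most 1000 bases (377 genes), of 0.44 over that and up to 1500 bases (723 genes), of 0.14 up to 2500 bases (1718 genes), of -0.15 up to 4000 bases (2070 genes) and of -0.36 over 4000 bases (1481 genes). The members of those classes had medians of 0.78 (22 members), 0.59 (11), 0.60 (7), 0.42 (4) and 0.40 (1 member, Ndufb2). In MPP4 the non-members ran from 0.51 in the shortest class to -0.33 in the longest, and the members from 0.51 to -0.00. Members of the shortest class were thus near the other genes of that class, and those of the classes between 1500 and 4000 bases stood above theirs.

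With an offset for transcript length fitted to non-member genes in each library, the median member difference came to 0.19 in MPP2, 0.12 in MPP3 and 0.17 in MPP4. This offset was added after the data had been seen, and 13880 genes with a coding transcript entered. It left 8 members higher in MPP2, against 4.49% of all genes, 1 in MPP3, against 2.2%, and 8 higher and 1 lower in MPP4, against 8.41% and 9.16%. Those in MPP2 included Ndufv2 (0.82), Ndufb8 (0.98), Ndufab1 (1.07), Ndufa4 (0.54), Ndufa9 (0.39), Ndufv1 (0.61) and Ndufaf6 (0.52), all log2 differences. In MPP4 they included Ndufa4 (1.12), Ndufv2 (0.66), Ndufa9 (0.35), Ndufaf1 (0.59), Ndufab1 (0.73), Ndufaf7 (0.45) and Ndufb8 (0.59), and the 1 lower was Ndufa2 at -0.28 (adjusted p = 0.0335). Ndufa4 kept its call in MPP3, at 0.81 (adjusted p = 0.000247), and with this offset it also passed in wild type alone in MPP4, at 1.11 (adjusted p = 0.00253), where 0.656% of all genes rose. Calls that the offset ended include Ndufs8, from 0.59 to 0.11 in MPP2, Ndufb9, from 0.91 to 0.29, and Ndufa1, from 1.02 to 0.24.

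**Figure D4:**
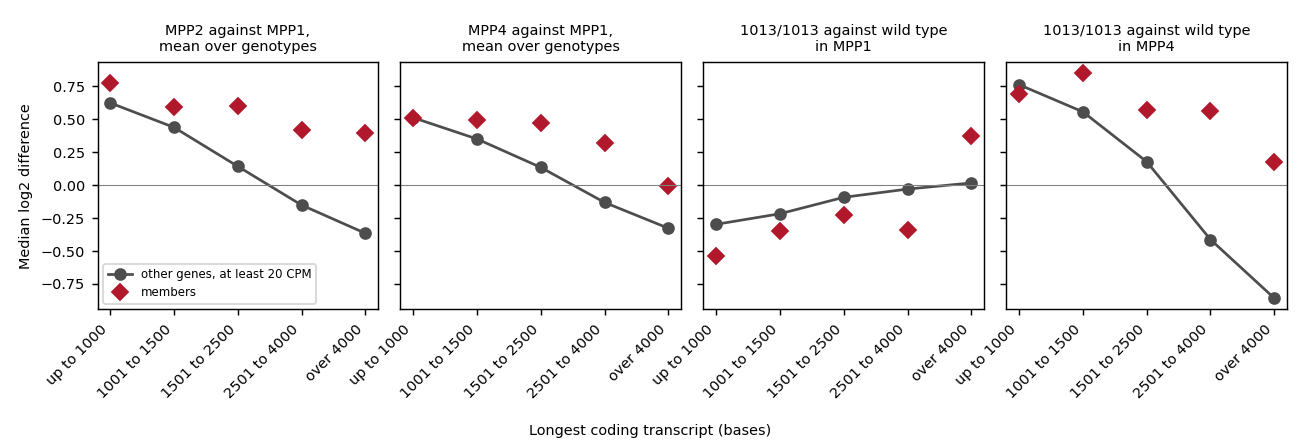
Median log2 difference of members (diamonds) and of other genes of at least 20 CPM (circles and line) in 5 classes of the longest coding transcript, in bases, for 4 comparisons. Other genes ran from 0.63 to -0.36 with length in MPP2 against MPP1 and from 0.76 to -0.86 in 1013/1013 against wild type in MPP4; in MPP1 the 1013/1013 difference had the opposite slope.

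Single libraries of MPP1 moved these counts. Without MPP1 +/1013 replicate 1, the highest MPP1 library for most members, 34 members were called in MPP2, 19 in MPP3 and 24 in MPP4. Without MPP1 1013/1013 replicate 1 the calls were 9 in MPP2 and 0 in MPP3, and without MPP1 1013/1013 replicate 2 there were 6 in MPP4. Without the 8 libraries whose number is a multiple of 3, 10, 1 and 7 members were called. The shares of all genes called in these refits were not counted. A change particular to the members therefore cannot be told from a change of all genes. Through every one of 26 alternatives the calls of Ndufv2 and Ndufa9 stood in both MPP2 and MPP4, those of Ndufb8, Ndufab1 and Ndufaf6 in MPP2, and those of Ndufa4 and Ndufaf1 in MPP4.

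One copy of the 1013 allele gave no called member. In +/1013 against wild type, the numbers of members with positive differences were 38, 42, 26 and 38 from MPP1 to MPP4, with medians of 0.22, 0.38, 0.02 and 0.20 on the log2 scale. The shares of all genes called were 0.0% in each of the 4. At an unadjusted p under 0.05 there were 0, 2, 1 and 0 members, against 1.5%, 4.81%, 3.34% and 2.08% of all genes, and DESeq2 and limma-voom called 0 in each. Averaged over the populations, 42 of 45 differences were positive with a median of 0.19, 0 members were called against 0.0214% of all genes, 1 had an unadjusted p under 0.05, against 4% of all genes, and both other tools called 0. The members of lowest p in that mean were Ndufa9 at 0.28 (SE 0.12), Ndufb5 at 0.31 (SE 0.15) and Ndufb8 at 0.30 (SE 0.15), each with an adjusted p of 1.

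Within the populations the +/1013 libraries spread around the wild-type ones. In MPP1 the 3 members of lowest p, Ndufa12, Ndufa1 and Ndufa11, had 0.46, 0.53 and 0.47, and these turned to -0.10, -0.10 and -0.01 without +/1013 replicate 1. In MPP2 they were Ndufs7 at 0.49, Ndufb8 at 0.65 and Ndufaf2, an assembly factor related to an accessory subunit, at 0.81, each with an adjusted p of 0.811. Ndufaf2 was at 28.7, 28 and 33.8 CPM in wild-type MPP2 and at 30.2, 33 and 96 CPM in +/1013 MPP2. The last value, in replicate 3, set it apart, and the others overlapped wild type. In MPP3 they were Ndufaf5 at 0.69, Ndufaf6 at -0.40 and Ndufaf2 at 0.48, and in MPP4 Ndufa9 at 0.35, Ndufaf1 at 0.45 and Ndufs3 at 0.35, each with an adjusted p of 1. With the length offset the member medians were 0.03, -0.02, -0.00 and 0.02 from MPP1 to MPP4.

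Member medians of 1013/1013 were below wild type in MPP1 and above it in MPP2 and MPP4. These sizes shrank with the length offset, and 1 member was called in the mean over populations. The Y-linked gene Ddx3y was under 1 CPM in 8 wild-type and 0 1013/1013 libraries, so its level went in part with this difference of genotype. In 1013/1013 against wild type, the numbers of the 45 members with positive differences were 5, 41, 40 and 42 from MPP1 to MPP4, with medians of -0.41, 0.65, 0.31 and 0.65. With the length offset 11, 25, 24 and 26 members were positive and the medians were -0.18, 0.11, 0.02 and 0.02. The MPP3 median was -0.19 without 1013/1013 replicate 2. Over all tested genes the medians were 0.00, -0.05, 0.00 and -0.12. No member was called in any of the 4, where the shares of all genes called were 0.00535%, 0.00535%, 0.0% and 0.712%. At an unadjusted p under 0.05 there were 2, 16, 1 and 14 members, against 2.06%, 11.5%, 4.17% and 15.8% of all genes. DESeq2 called 3 in MPP2 (Ndufaf6, Ndufb9 and Ndufb8) and 3 in MPP4 (Ndufa9, Ndufaf1 and Ndufs4) and 0 in MPP1 and MPP3, against 7.17% and 13.6% of all genes in the former pair. The limma-voom calls were 1, Ndufa9, in MPP4 (1.94% of all genes) and 0 in the other populations.

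By role, in MPP1 none of 7 core subunits, 5 of 29 accessory subunits and none of 8 assembly factors had a positive difference. Those of lowest p were Ndufaf8, a factor that works with Ndufaf5, at -0.93 (SE 0.38), Ndufaf2 at -1.07 (SE 0.46) and Ndufs1 at -0.56 (SE 0.27), each with an adjusted p of 1. In MPP2 they were Ndufaf6 at 1.22 (SE 0.35, adjusted p = 0.183), Ndufb9 at 1.02 (SE 0.32, adjusted p = 0.21) and Ndufb8 at 1.05 (SE 0.33, adjusted p = 0.21). In MPP3 they were Ndufs1 at -0.71 (SE 0.28), Ndufab1 at 0.52 (SE 0.30) and Ndufa7 at 0.55 (SE 0.34), with an adjusted p of 0.973, and Ndufa7 was at -0.03 without 1013/1013 replicate 2. In MPP4 they were Ndufa9 at 0.92 (SE 0.25, adjusted p = 0.0838), Ndufaf1 at 1.03 (SE 0.33, adjusted p = 0.133) and Ndufs4, an accessory subunit of the electron input module, at 0.78 (SE 0.27, adjusted p = 0.157).

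Ndufa9 and Ndufaf1 are given here because they had the lowest p in MPP4, so their values are not typical of the members. Over 15 alternatives the log2 difference of Ndufa9 in 1013/1013 MPP4 ran from 0.51 to 1.02. Ndufa9 was at 454, 459.5 and 481 CPM in wild-type MPP4, at 757, 483 and 541 CPM in +/1013 and at 871 and 893 CPM in 1013/1013. The 3 genotypes did not overlap in that population, with wild type lowest and 1013/1013 highest, but wild type and +/1013 nearly met, at 481 and 483 CPM. Ndufaf1 was at 72.6, 123 and 80.5 CPM in wild-type MPP4, at 163, 98.5 and 116 CPM in +/1013 and at 197 and 179 CPM in 1013/1013. Here the wild-type and +/1013 values overlapped and the 1013/1013 values were above both. Differences from wild type in +/1013 and in 1013/1013 share the wild-type libraries.

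In the mean over populations, Ndufs1 fell in 1013/1013 against wild type and no member rose, where 0.477% of all genes fell and 0.209% rose. Ndufs1 lies at chr1:63143596-63176833 on the minus strand in the mm10 build, 65.4 Mb from Cxcr4 on the same chromosome. It was at 122, 112 and 164 CPM in wild-type MPP1 and at 74.5 and 106 CPM in 1013/1013 MPP1. In MPP2 it was at 154, 147 and 168 CPM in wild type and at 86.9 and 124 CPM in 1013/1013. In both populations the 1013/1013 libraries lay below every wild-type library. In MPP3 it was at 107, 145 and 117 CPM in wild type and at 90.4 and 59.5 CPM in 1013/1013, and in MPP4 at 134, 114 and 183 CPM in wild type and at 83.1 and 96.1 CPM in 1013/1013. There too the groups did not overlap, so all 8 of the 1013/1013 libraries were below the wild-type libraries of their own population. Ndufs1 is given here because it passed the test in these same libraries, so the separation adds nothing to that call. The share of all genes with such a separation was not counted.

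The +/1013 libraries of Ndufs1 overlapped wild type. Their values were 135, 109 and 169 CPM in MPP1, 143, 116 and 163 CPM in MPP2, 115, 143 and 106 CPM in MPP3 and 116, 108 and 169 CPM in MPP4. Averaged over the populations, the 1013/1013 libraries stood at -0.63 (SE 0.14, 0.646-fold, adjusted p = 0.0285) from wild type on the log2 scale. The +/1013 libraries stood at -0.06 (SE 0.12, adjusted p = 1), and the direct comparison of both mutant genotypes gave -0.57 (SE 0.14, adjusted p = 0.168). Non-member genes whose longest coding transcript is over 2500 and up to 4000 bases long, the class of Ndufs1, had a median of -0.25 in the 1013/1013 mean, and with the length offset Ndufs1 was at -0.53 (adjusted p = 0.0499). The call ended in 10 of 30 alternatives, among them a term for the level of the Y-linked gene Ddx3y, under 1 CPM in 8 wild-type, 3 +/1013 and 0 1013/1013 libraries (-0.50, adjusted p = 0.137), and leaving out any of 8 single libraries. Those were MPP1 wild-type replicate 3 (adjusted p = 0.0609), MPP2 wild-type replicate 3 (0.0513), MPP3 wild-type replicate 2 (0.057), MPP4 wild-type replicate 3 (0.0534), and, of the 1013/1013 libraries, MPP1 replicate 1 (0.126), MPP2 replicate 1 (0.13), MPP3 replicate 2 (0.144) and MPP4 replicate 2 (0.0641). Over the 30 alternatives the log2 difference ran from -0.73 to -0.50 and the adjusted p from 0.000193 to 0.144.

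**Figure D5:**
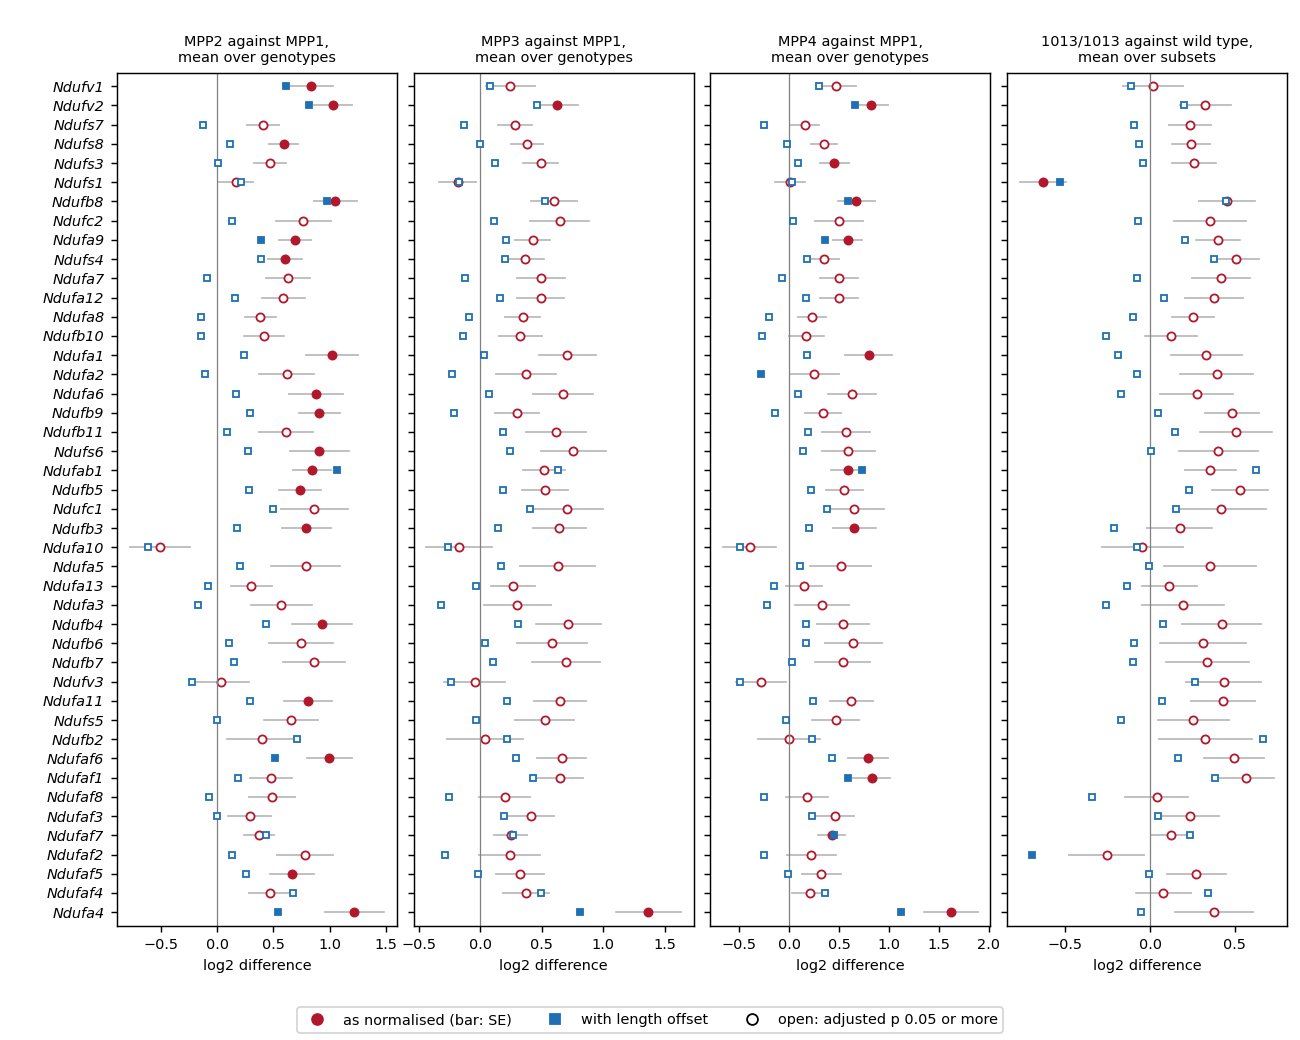
Log2 difference of the tested members drawn (rows, grouped by role) in 4 comparisons, as normalised by TMM (circles, bar for 1 SE) and with the offset for transcript length (squares); filled symbols have an adjusted p under 0.05. Most members lie above 0 in the 3 population means and move towards 0 with the offset, and Ndufs1 is the one filled circle in the genotype mean, at -0.63.

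The other members in the 1013/1013 mean leaned upwards without passing. Of the 45, 42 had positive differences, with a median of 0.33 against -0.17 over all genes, and 16 had an unadjusted p under 0.05, against 16.4% of all genes. After Ndufs1, the lowest p belonged to Ndufs4 at 0.51 (SE 0.13, adjusted p = 0.0718) and Ndufaf1 at 0.57 (SE 0.16, adjusted p = 0.0934). DESeq2 called 6 members (Ndufs1 lower, and Ndufs4, Ndufaf1, Ndufa9, Ndufb5 and Ndufb9 higher), against 12.2% of all genes, and limma-voom called 1 (Ndufs1), against 1.89%. With the length offset 21 of 45 differences were positive, the median was -0.01, and 2 members fell, Ndufs1 and Ndufaf2, where 0.504% of all genes fell. Ndufaf2 had -0.26 (SE 0.22, adjusted p = 0.675) as normalised and -0.70 (adjusted p = 0.0429) with the offset, and its levels in MPP1 were 33.6, 27.7 and 24 CPM in wild type and 16.9 and 10.2 CPM in 1013/1013. Those groups did not overlap, while in MPP4 wild type, at 22.5, 24.7 and 30.2 CPM, and 1013/1013, at 24.2 and 24.5 CPM, did.

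Between both mutant genotypes, averaged over populations, 39 of 45 members had positive differences in 1013/1013 against +/1013 with a median of 0.10. No member was called, against 0.0428% of all genes, 2 had an unadjusted p under 0.05, against 9.11% of all genes, DESeq2 called 1 (Ndufs1, lower, against 4.89% of all genes) and limma-voom 0. The members of lowest p were Ndufs1, Ndufs4 at 0.30 (adjusted p = 0.503) and Ndufaf6 at 0.36 (adjusted p = 0.549).

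Whether the 1013/1013 effect differed between populations was tested member by member. For MPP1 against the mean of MPP2 to MPP4, a comparison added after the data had been seen, 42 of 45 members were more negative in MPP1, the median of this difference of differences was -0.92 and that over all genes 0.24. No member was called, nor any gene (0.0%), 26 members had an unadjusted p under 0.05 against 8.71% of all genes, and DESeq2 and limma-voom called 0 members. Those of lowest p were Ndufa9 at -0.99 (SE 0.30), Ndufaf8 at -1.30 (SE 0.44) and Ndufa11, a membrane-arm subunit, at -1.33 (SE 0.45), each with an adjusted p of 0.508. Ndufs1 had 0.10 (SE 0.31) and Ndufa10 0.48 (SE 0.55), outside the common direction. Non-member genes with transcripts of at most 1000 bases had a median of -0.90 in this comparison and those over 4000 bases 0.61, the short members had -1.10, and with the length offset the median of all members was -0.18.

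For MPP4 against the mean of MPP1 to MPP3 the 1013/1013 effect had a member median of 0.44, with 42 of 45 members positive, 0 called against 0.102% of all genes, 3 at an unadjusted p under 0.05 against 8.22% of all genes, and 0 by DESeq2 and limma-voom. Its lowest p belonged to Ndufa9, at 0.70 (SE 0.29, adjusted p = 0.526). With the length offset the median was 0.06. The corresponding +/1013 effect had a median of -0.01, with 0 members at an unadjusted p under 0.05 against 1.71% of all genes, 0 called by any of the 3 tools, and 0.0% of all genes called.

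Cxcr4, the gene the allele alters, was not called: its log2 difference from wild type was 0.39 (adjusted p = 1) in +/1013 and 0.99 (adjusted p = 0.177) in 1013/1013, averaged over populations, and a truncated coding sequence need not change the count.

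The genes that work with the members were read from lists chosen by function. Of the 7 mitochondrially encoded complex I subunits, 6 were tested, and all 6 had positive differences in the MPP2, MPP3 and MPP4 means over genotypes, with medians of 0.58, 0.92 and 0.91. One of them passed, mt-Nd1, in MPP4, at 1.26 (SE 0.43, adjusted p = 0.0498), and it did not with the length offset, at 0.88 (adjusted p = 0.132). The summed level of these genes was 1734 to 4005 CPM in the 8 libraries whose number is a multiple of 3 and 446 to 2030.2 CPM in the other 24, so this sum moved with that set of libraries, and its part in the result was not tested. In the 1013/1013 and +/1013 means 0 of the 6 were called. Of all genes, 0.209% rose and 0.477% fell in the 1013/1013 mean, and 0.0214% were called in the +/1013 mean. The absence of calls thus says little about a list this short.

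Of 11 other complex I assembly factors tested, 4 rose in MPP2, none in MPP3 and 5 in MPP4, where 5.01%, 2.36% and 7.59% of all genes rose, shares that also stand behind the counts of the lists that follow. With the length offset the calls of Dmac1 in MPP2 and MPP4 and of Timmdc1 in MPP4 ended. Timmdc1, a factor of the membrane-arm assembly complex, rose by 1.54 on the log2 scale in MPP4, and Tmem126b, of the same complex, by 0.89. Nubpl, which delivers iron-sulfur clusters, rose by 0.86 in MPP2 and by 1.04 in MPP4. Dmac1 rose by 0.91 in MPP2 and by 0.72 in MPP4, and Tmem70 by 0.66 and by 0.81. Foxred1 rose by 0.56 in MPP2. None of the 11 was called in either genotype mean, against the same small shares of all genes as for the mitochondrially encoded subunits.

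Among 12 regulators of respiratory genes, Tfam, the activator of mitochondrial DNA transcription, rose in the 3 population means, by 0.45 in MPP2, 0.57 in MPP3 and 0.55 in MPP4. Gabpb1, a subunit of the ETS-family factor GABP, rose by 0.49 in MPP3 and by 0.74 in MPP4, and Yy1 fell by 1.67 in MPP4 (adjusted p = 0.0357). Of 13 genes of ubiquinone synthesis, Coq3 and Coq6 rose in MPP2, by 1.49 and 0.82, and in MPP4, by 0.98 and 0.51, while Coq8a fell by 1.57 in MPP4. Of 13 tested genes of iron-sulfur cluster assembly, Glrx5 rose by 0.75 in both MPP2 and MPP4, Nfu1 by 0.56 and Isca2 by 0.78 in MPP2, and Hscb and Isca1 fell by 0.67 and 0.54 in MPP4. Of 9 mitochondrial antioxidant enzymes, 4 rose in MPP2 (Prdx3, Gpx4, Txn2 and Gpx1), 1 in MPP3 (Gpx1) and 3 in MPP4 (Prdx3, Txn2 and Gpx1), and Txnrd2 fell in MPP4. Of 8 enzymes that feed electrons to the chain by other routes, Dhodh rose by 0.45 and Prodh fell by 1.48 in MPP4. Of all genes 7.12% fell in MPP4. With the length offset the calls of Yy1, Coq8a, Dhodh and Coq6 in MPP4, of Nfu1, Isca2, Gpx1 and Gpx4 in MPP2 and of Txn2 in both ended. In the 2 genotype means none of these lists had a called gene. Of all genes, 0.0214% were called in the +/1013 mean, and 0.209% rose and 0.477% fell in the 1013/1013 mean. Lists this short would hold few calls at such shares.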

How the data were processed

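RNA of 32 pools of 3000 sorted progenitors was amplified with SMART-Seq v4 and made into Nextera XT libraries, per the labels' protocols. The deposited table holds raw read counts per gene for each library, together with gene coordinates and a gene length in bases, per the file headers. The submitters' processing notes name STAR, HTSeq and mm10; versions and the strand setting are not given in the sources used here. Another 64 columns of values per sample were not used. Without a stated strand setting, reads of a member and of an overlapping antisense gene cannot be told apart.

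The members and gene lists were chosen with earlier results of these data known. Counts were scaled by TMM, filtered with filterByExpr (18676 genes kept) and fitted with edgeR's quasi-likelihood test (edgeR 4.0.16, R 4.3.3) over the 12 groups together, with Benjamini-Hochberg adjustment over all tested genes and a threshold of 0.05. All p-values are two-sided. The fit was tested on simulated data. Named with values were core subunits, assembly factors, members past the threshold or the 3 of lowest p in a comparison, the highest and lowest levels per length, and Ndufa4 and Ndufa4l2. Ndufa10 and the members that other tools called were named after their values had been seen. The values of 1 member that counts include are not reported here.

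Alternatives were DESeq2 1.42.0, limma-voom (limma 3.58.1), RLE scaling, no filter, leaving out each library, a replicate block, terms for the 8 libraries whose number is a multiple of 3, for the 5 libraries numbered from 46 and for Ddx3y under 1 CPM, and leaving out those 8. The comparison of MPP1 with the mean of MPP2 to MPP4, levels per GENCODE M21 length and a length offset were added after seeing the data. The offset was a lowess curve (span 0.5) of each library's log ratio on log2 transcript length over non-member genes of at least 20 CPM, with a pseudocount of 0.5 CPM, and 74.3% of tested genes had a length for it.

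Same-numbered libraries deviated together in +/1013 against wild type, with a correlation over 0.1 in all 3 pairs of each population (0.109 to 0.62), and in MPP3 against MPP1 in wild type (0.113 to 0.199), a pairing read from the data and not from the labels. MPP2 and MPP4 against MPP1 in wild type each had a pair under 0.1, and each 1013/1013 group shares 2 numbers with wild type, too few pairs for this check. Spearman correlations between replicates were 0.839 to 0.949, and no pair of libraries held identical values.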

Additional observations from a re-analysis of the deposited data

Results flagged for a closer look

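The median member moved in opposite directions in 1013/1013 MPP1 and in 1013/1013 MPP2 and MPP4. Relative to the wild-type mean of the same population, on the log2 scale, the median member was at -0.37 and -0.42 in the 1013/1013 libraries of MPP1, at 0.91 and 0.53 in MPP2, at -0.20 and 0.66 in MPP3 and at 0.63 and 0.73 in MPP4. Every 1013/1013 library of MPP1 was thus below wild type and every one of MPP2 and MPP4 above it. The group values were -0.395 in MPP1 and 0.723 in MPP2, which differ by -1.12. Against MPP4, at 0.68, MPP1 differed by -1.08. The difference of these medians was not tested; member by member, the comparison of MPP1 with the mean of the other populations called 0 of 45 members. Other genes with transcripts of at most 1000 bases had a median of -0.90 in that comparison, and with the length offset the members' median was -0.18. Both MPP1 libraries, both MPP2 libraries and both MPP4 libraries are all that stand behind the pattern.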

How the results depend on the processing

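The number of called members depended on the setting. Shares of all genes called stand with the results above for DESeq2, limma-voom and the length offset. For the other settings they were not counted. A change particular to the members cannot be told there from a change of all genes. In MPP2 against MPP1 over genotypes the count of 19 became 12 with a term for the 8 libraries, 10 without them, 12 with a term for libraries numbered from 46 and 8 with the length offset, and 9 to 34 when single libraries were left out. In MPP3 the count of 2 became 1 with RLE scaling, no filter, the Ddx3y term, the term from 46, the length offset or without the 8 libraries, 10 with DESeq2 and 6 with limma-voom, and 0 to 19 without single libraries. In MPP4 the count of 12 became 19 with limma-voom and 7 without the 8 libraries, and 6 to 24 without single libraries. In wild type, MPP4 against MPP1 had 1 call with the length offset in place of 0. For 1013/1013 against wild type, MPP2 had 3 calls with DESeq2, 1 without the 8 libraries and 0 to 3 without single libraries, and MPP4 had 3 with DESeq2 and 1 with limma-voom, each in place of 0. The 1013/1013 mean had 6 calls with DESeq2, 0 with the Ddx3y term, 2 with the length offset and 0 to 7 without single libraries, in place of 1. It had 7 without MPP2 1013/1013 replicate 2. Against +/1013 it had 1 with DESeq2 and 0 to 1 without single libraries.

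Member medians moved with the length offset, to 0.19, 0.12 and 0.17 in the MPP2, MPP3 and MPP4 means, to -0.0196 for +/1013 in MPP2, to 0.11 and 0.0204 for 1013/1013 in MPP2 and MPP4, to -0.00794 in the 1013/1013 mean, and to 0.0614 and -0.18 where its effect in MPP4 or MPP1 was set against the other populations. Without the 8 libraries the 1013/1013 median in MPP2 was 1.07. Leaving out single libraries, the +/1013 median in MPP1 ran from -0.14 (without +/1013 replicate 1) to 0.41 and the 1013/1013 median in MPP3 from -0.19 (without 1013/1013 replicate 2) to 0.60. For +/1013 in MPP1, Ndufa12 ran from -0.10 to 0.71, Ndufa1 from -0.10 to 0.79 and Ndufa11 from -0.00863 to 0.70, and for 1013/1013 in MPP3 Ndufa7 ran from -0.0321 to 0.89, the negative values again without the library just named. Beyond the offset's own construction, the cause was not tested.

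With the replicate block, Ndufs1 was at -0.53 with an adjusted p of 0.0664 in the 1013/1013 mean, which left 0 calls there; those replicates share only a number. In MPP2 and MPP4 the set of 8 libraries holds replicate 2 of 1013/1013 but replicate 3 of wild type and +/1013. The block does not join those libraries. It changed no other call of a named member. With 2 libraries per 1013/1013 group, single libraries limit every 1013/1013 value.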

Other observations

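Ndufa10 differed between replicates 1 and 2 in the same direction in all 8 groups of wild-type and +/1013 libraries. In MPP1, for example, it was at 45.9 CPM in replicate 1 and 94.6 CPM in replicate 2 of wild type, and at 53.5 and 102 CPM in +/1013. Of all 18676 tested genes, 3.05% were likewise lower in replicate 1 in all 8 groups. Higher in replicate 1 in all 8 were 5 members, among them Ndufa7, Ndufb11, Ndufb4 and Ndufs4, against 423 of the 18676 tested genes. Of all tested genes, 5.32% kept 1 direction or the other. The labels do not tell what a replicate number marks.

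With each group's mean removed, Ndufa10 correlated at 0.76 with the median of genes over 4000 bases across the 32 libraries, where the median member correlated at -0.785 with it. Its longest coding transcript in GENCODE M21 has 2020 bases, against 695 bases of deposited length.

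Ndufa10 and Ndufb3 lie on chromosome 1 as Ndufs1 does, at 36.1 and 70.0 Mb from Cxcr4, and neither was called in either genotype mean. Few of all genes were: 0.0214% were called in the +/1013 mean, and 0.209% rose and 0.477% fell in the 1013/1013 mean. Whether the distance from Cxcr4 has a part in these values was not tested.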
